A study of Homo sapiens with 4 samples.

Results

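The histone cluster genes encode the core histones H2A, H2B, H3 and H4 and the linker histone H1, and they were read on 77 of the 34127 probes of a human whole-genome array. The 77 probes belong to 66 genes of the 19483 that the probes name: 6 probes for H1, 17 for H2A, 22 for H2B, 14 for H3 and 18 for H4. A probe was a member when its RefSeq accession led to a gene whose earlier symbol begins with HIST1H, HIST2H, HIST3H or HIST4H, a rule that uses no measured value. By location, 54 of the genes lie on chromosome 6, 11 on chromosome 1 and 1 on chromosome 12.

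The cells were TR9_MeTA14 and TR15_MeTA5, made from LNCaP, an androgen-responsive human prostate cancer line. Each carries a Tet repressor (from the parental lines TR9 and TR15) and a stably introduced construct, NFκB (AD)-MBD with a FLAG tag, which tetracycline switches on; whether each line is 1 clone is not given in the sources used here. The fusion joins the activation domain of NFκB to a methyl-CpG-binding domain and is meant to turn on genes silenced by DNA methylation. There were 4 one-colour arrays, 1 per condition: TR9_MeTA14 without tetracycline (-Tet), TR9_MeTA14 with tetracycline for 4 days (+Tet), and the same pair for TR15_MeTA5. The -Tet cells carried both constructs as well, and arrays of TR9 or TR15 cells were not analysed here, so tetracycline itself and the induced protein cannot be told apart. With 1 array per condition no fold change within a line has a replicate check, and none has a p-value.

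Each nucleosome holds H2A, H2B, H3 and H4 in equal parts, with H1 on the linker DNA. Most genes of the histone clusters are transcribed in S phase, when new chromatin is built, and their mRNAs end in a stem-loop bound by SLBP in place of a poly(A) tail. The labelling kit copies RNA from its poly(A) tail, so a signal here reflects the histone transcripts that were primed, and that part cannot be told apart from the whole amount. The copies of one class are close to identical in their coding sequence, so a probe may also read a neighbour. The sequences of the probes were not used here.

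The promoters show how the classes differ before any level is considered. RefSeq windows (GRCh38.p14, 300 bases around the start, mostly before it) were found for 61 of the 66 genes, as 65 windows of 35116 in the table. The following 4 are printed because H4C2, H3C2 and H2AC20 were among the genes lower with tetracycline in TR9_MeTA14 and H4C11 was not. They are H4C2 at chr6:26027234-26027533 (minus strand), H4C11 at chr6:27823842-27824141 (plus strand), H3C2 at chr6:26032050-26032349 (minus strand) and H2AC20 at chr1:149886668-149886967 (plus strand). Capitals mark 3 motifs, each on either strand: TATAAA, the core of the box that sets the start of transcription; CCAAT, to which the factor NF-Y binds; and ATTTGCAT, the octamer bound by Oct-1.
H4C2: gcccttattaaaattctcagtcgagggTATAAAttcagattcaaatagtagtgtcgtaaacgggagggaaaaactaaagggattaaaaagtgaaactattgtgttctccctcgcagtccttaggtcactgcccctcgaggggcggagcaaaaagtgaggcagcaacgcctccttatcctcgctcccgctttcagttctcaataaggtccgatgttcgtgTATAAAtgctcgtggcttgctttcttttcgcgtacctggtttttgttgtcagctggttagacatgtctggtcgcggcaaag
H4C11: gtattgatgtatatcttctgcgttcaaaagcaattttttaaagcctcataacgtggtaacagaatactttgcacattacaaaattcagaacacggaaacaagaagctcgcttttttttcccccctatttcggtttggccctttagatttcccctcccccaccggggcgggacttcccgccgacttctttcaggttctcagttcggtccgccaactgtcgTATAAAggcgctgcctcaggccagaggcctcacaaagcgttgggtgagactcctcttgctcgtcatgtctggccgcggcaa
H3C2: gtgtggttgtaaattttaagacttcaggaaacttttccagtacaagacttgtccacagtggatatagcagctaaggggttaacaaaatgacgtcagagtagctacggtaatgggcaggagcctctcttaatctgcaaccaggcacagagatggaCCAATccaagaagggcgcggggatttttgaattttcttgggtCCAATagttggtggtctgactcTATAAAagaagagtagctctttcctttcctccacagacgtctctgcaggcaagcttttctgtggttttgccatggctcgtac
H2AC20: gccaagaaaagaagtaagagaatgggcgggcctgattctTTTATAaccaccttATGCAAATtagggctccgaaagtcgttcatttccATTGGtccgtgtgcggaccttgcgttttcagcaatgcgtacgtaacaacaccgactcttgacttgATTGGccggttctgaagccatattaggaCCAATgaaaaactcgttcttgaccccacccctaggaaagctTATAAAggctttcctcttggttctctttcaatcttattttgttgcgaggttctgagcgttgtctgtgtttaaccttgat

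TATAAA stood in 66.2% of the histone windows against 11.5% of all windows, CCAAT in 86.2% against 34.6%, and ATTTGCAT in 40% against 1.77%. No motif of the 3 contains another. The octamer lay in 71.4% of H2A and 75% of H2B windows, in 7.69% of H3 windows and in none of the 12 H4 or 6 H1 windows. CCAAT was present in every H1, H2A, H2B and H3 window and in 25% of H4 windows. The median histone window held 11 CpG sites and 43% G and C, against 14 sites and 58.7% over all windows. A match is a description of the letters only. Windows of genes that lie head to head overlap: H2AC20 and H2BC21, whose window is chr1:149886633-149886932 on the minus strand, start 236 bases apart and share most bases of their windows.

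Values were scaled by dividing the processed signal by the 75th percentile of the array, which was 617 without and 777 with tetracycline in TR9_MeTA14, and 367 and 542 in TR15_MeTA5. Because this percentile was higher on both +Tet arrays, a signal that stays level gives a negative scaled change. Signals quoted below are processed signals in arbitrary units before scaling, and changes are of scaled values on the log2 scale or as a fold. Of the 77 probes, 71 were well above background on all 4 arrays. The probes of H1-1, H1-6, H2BC1 and H4C16 were well above background on no array, that of H4C7 on TR9_MeTA14 +Tet alone, and 1 of 3 for H2BC18 on the TR9_MeTA14 arrays alone. All 7 luminal prostate markers (KLK3 and KRT18 among them) were well above background on all 4 arrays. Of 8 markers of basal, stromal and immune cells, 5 (KRT5, KRT14, TP63, COL3A1 and DCN) were well above background on none. The others were detected, stromal COL1A1 and immune PTPRC on all 4 arrays and immune CD3E on 3. The processed signals of those 8 summed to 628 without and 717 with tetracycline in TR9_MeTA14 and to 218 and 277 in TR15_MeTA5. The signals of the 7 luminal markers summed to 290148 without and 136716 with tetracycline in TR9_MeTA14, and to 233126 and 218196 in TR15_MeTA5. The part of either list in the histone values was not tested.

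In TR9_MeTA14, tetracycline left none of the 73 compared histone probes at least 2-fold higher, against 15.2% of all 24248 probes compared. At least 2-fold lower were 12 of 73 (16.4%), close to the 15.1% of all probes. The lower probes lay unevenly among the classes: 7 of 17 for H4 (41.2%), 2 of 14 for H3, 1 of 21 for H2B, 1 of 17 for H2A and 1 of 4 for H1. With bulk RNA, fewer cells in S phase and less histone mRNA per cell cannot be told apart.

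The largest change was that of H3C15, an H3 gene of the chromosome 1 cluster. Its signal was 11535 without and 1808 with tetracycline in TR9_MeTA14, and 37631 and 38839 in TR15_MeTA5. The TR9_MeTA14 +Tet array was thus the low one, 8.03-fold below its control after scaling. H3C2, on chromosome 6, read 3183 and 809 in TR9_MeTA14 and 6394 and 5448 in TR15_MeTA5, a change of -2.31 in the first line and -0.80 in the second. The other 12 H3 probes changed by between -0.94 (H3C7) and 0.42 (H3C12) in TR9_MeTA14. H3-4 (formerly HIST3H3), whose probe had the highest mean signal of its class, read 28891 and 42336 in TR9_MeTA14 and 28840 and 34538 in TR15_MeTA5, changes of 0.22 and -0.30. In TR15_MeTA5 that sign turned with quantile normalization (0.02) and with spike-in scaling (0.14).

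H4 held most of the lower probes. H4C3, the H4 probe of highest mean signal, read 54684 and 12765 in TR9_MeTA14 -Tet and +Tet, and 80808 and 71257 in TR15_MeTA5. It was 5.39-fold lower with tetracycline in TR9_MeTA14 and 1.68-fold lower in TR15_MeTA5. H4C13 (probe A_23_P70480) read 11565, 2469, 16298 and 14175 in the same order, a 5.90-fold lower value in TR9_MeTA14. H4C2, whose promoter is printed above, read 6556, 2135, 8886 and 7738, and its change in TR9_MeTA14 was -1.95. In each of these genes TR9_MeTA14 +Tet was the lowest of the 4 arrays. H4C1 (-1.85 and -1.29 on its 2 probes) and H4C5 (-1.15) complete the H4 genes lower in that line with H4C4, described below.

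Other H4 copies did not share this. H4C12 (probe A_23_P30813) read 1590 and 3409 in TR9_MeTA14 and 2493 and 3246 in TR15_MeTA5, with changes of 0.77 and -0.18. H4C11 read 2185 and 4567 in TR9_MeTA14 and 3293 and 4408 in TR15_MeTA5, with changes of 0.73 and -0.14. For both, the TR15_MeTA5 change turned positive with spike-in scaling (0.26 and 0.30). The other, brighter probe of H4C12 (A_33_P3299865) read 3794 and 5104 in TR9_MeTA14 and 6578 and 7082 in TR15_MeTA5. Its changes were 0.10 and -0.46. H4C6, H4C8, H4C9 and H4C15 lay between 0.02 and 0.43 in TR9_MeTA14. In the order of histone genes along chromosome 6, the H4 genes from H4C1 to H4C5 (places 5 to 23) each had a probe at least 2-fold lower in TR9_MeTA14, the H4 genes from H4C6 to H4C12 (places 28 to 45) had none, and H4C13 (place 51) had one again. This order was noticed after the values were seen and was not tested. Windows were found for 4 of the 6 H4 genes with a lower probe and for the 8 other H4 genes. TATAAA stood in 3 of those 4 and 4 of those 8, and the median number of CpG sites was 14 and 13.5.

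**Figure D1:**
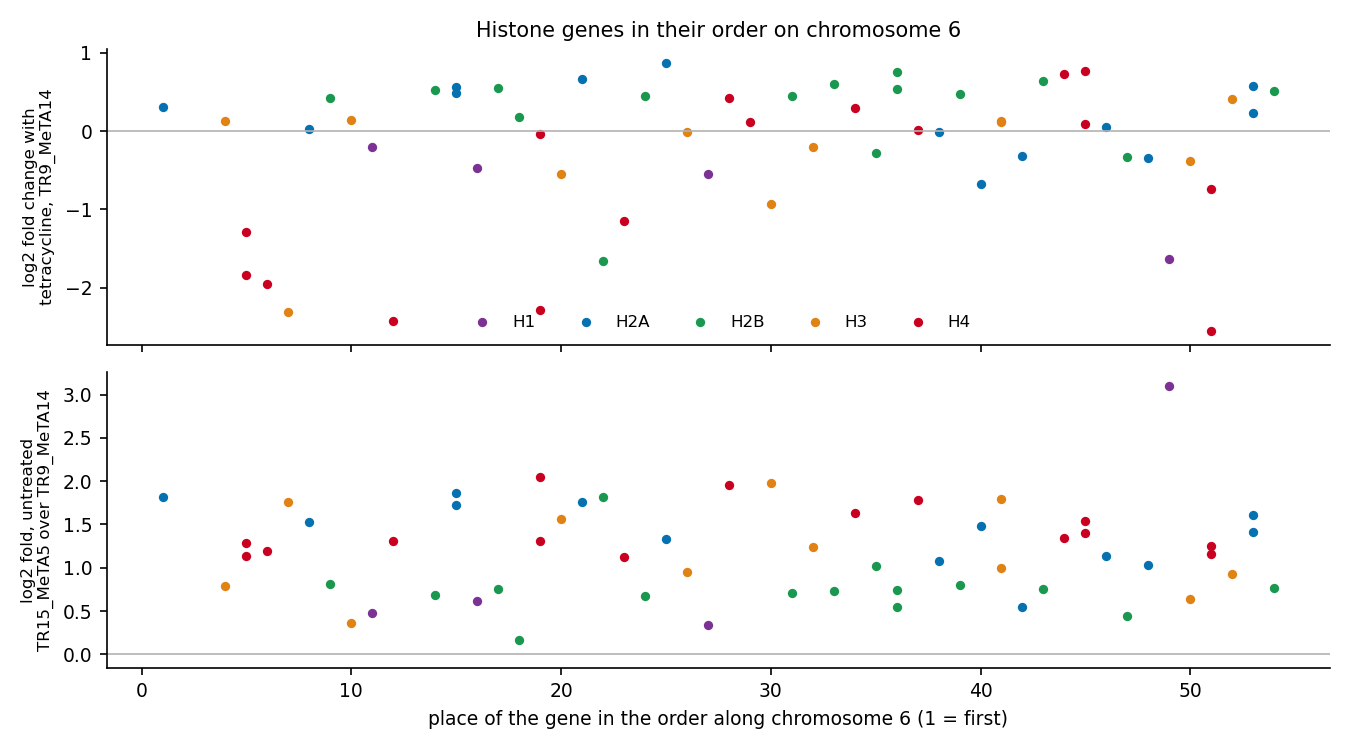
Log2 change of each histone probe on chromosome 6 by the place of its gene in the order along the chromosome, coloured by class. Top, tetracycline in TR9_MeTA14; bottom, TR15_MeTA5 -Tet over TR9_MeTA14 -Tet. The H4 points (red) at places 5 to 23 include values down to -2.43, those at places 28 to 45 lie between 0.02 and 0.77, and every point of the lower panel is above 0.

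H2A and H2B had 1 probe each at least 2-fold lower in TR9_MeTA14, and medians above 0. The median H2B change was 0.46 over 20 probes and the median H2A change 0.22 over 17, beside -0.15 over all 19298 probes measured on every array. The 5 largest increases of any histone probe were in H2AC8 (0.87), H4C12 (probe A_23_P30813), H2BC12 (0.75), H2AC19 (0.74) and H4C11, none reaching 2-fold. H2AC8 read 2637 and 6080 in TR9_MeTA14 and 3952 and 4567 in TR15_MeTA5. H2BC12 (probe A_23_P145238) read 12398 and 26249 in TR9_MeTA14 and 10726 and 15705 in TR15_MeTA5, and H2AC19 read 2483, 5225, 5387 and 5404. On these 3 probes the signal of TR9_MeTA14 was higher with tetracycline than without it, by more than in TR15_MeTA5. H2AC7 and H2BC13, the probes of highest mean signal in their classes, changed by 0.67 and 0.48 in TR9_MeTA14 and by -0.57 and -0.44 in TR15_MeTA5.

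The exceptions were H2AC20 and H2BC7. H2AC20 read 2205 and 653 in TR9_MeTA14 and 4859 and 4665 in TR15_MeTA5, 4.25-fold lower with tetracycline in the first line. H2BC7 read 217 and 86.2 in TR9_MeTA14 and 454 and 442 in TR15_MeTA5, a change of -1.66 in the first line. Both lie head to head with another histone gene. The partner of H2AC20, H2BC21, gave 0.47 on one probe and -0.75 on the other. The partner found for H2BC7 was H3C4, which gave -0.55. H2AC7 lies between H3C4 and H2BC7 in the gene order (places 20 to 22). It was in none of the pairs found, and it changed by 0.67. Pairs were sought only between neighbouring genes with a promoter window, 1 window per gene, so pairs may be missing. This gave 10 head-to-head pairs, whose starts lie 194 to 246 bases apart. In TR9_MeTA14 the changes had the same sign in 5 pairs, such as H2BC4 and H2AC6 (0.52, with 0.49 and 0.56), and opposite signs in 3: H2BC13 and H2AC13 (0.48 and -0.68), H2AC14 and H2BC14 (-0.31 and 0.64), and H2AC15 and H2BC15 (0.05 and -0.33). In the remaining pairs the H2BC21 probes differed and H2BC1 was not measured. The 0.05 of H2AC15 is below the SD of 0.0865 that repeated spots give for a log2 ratio, so its sign is uncertain.

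The changes of all 4 measured H1 probes were negative in TR9_MeTA14, though for H1-2 that sign turned with quantile normalization (-0.20 against 0.60). H1-2, the H1 probe of highest mean signal, read 84377 and 92146 in TR9_MeTA14 and 69615 and 64803 in TR15_MeTA5. H1-5 read 62.9 and 25.5 in TR9_MeTA14 and 321 and 218 in TR15_MeTA5, changes of -1.64 and -1.12. With normexp background correction and quantile normalization the first of these was -0.58, under 2-fold. H1-3 read 4256, 3650, 3208 and 2107, with changes of -0.55 in TR9_MeTA14 and -1.17 in TR15_MeTA5, and the second was -0.73 with spike-in scaling.

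In TR15_MeTA5 the changes of the histone probes were small. None of 71 was at least 2-fold higher, against 8.5% of the 22341 probes compared, and 3 of 71 (4.23%) were at least 2-fold lower, against 2.67%. Those 3 were H1-3, H1-5 and H4C4. The median change was -0.54 over the 71 probes, with 69 below 0 and quartiles of -0.67 and -0.41. With spike-in scaling it was -0.10, with 50 below 0 and 21 above. Over all 19298 probes measured on every array the median was -0.19, with 13184 below 0. Spike-in scaling moved that median to 0.26, with 4047 below 0 (and the median of TR9_MeTA14 from -0.15 to -0.02). Class medians were -0.92 for H1, -0.60 for H2A, -0.41 for H2B, -0.52 for H3 and -0.54 for H4, of which H2B turned to 0.04 with spike-in scaling. The largest decreases after those 3 were in H2BC21 (probe A_23_P149545, -0.96) and H2AC6 (probe A_23_P372860, -0.91). H2BC21 read 436 and 758 in TR9_MeTA14 and 344 and 263 in TR15_MeTA5, and H2AC6 read 76.2, 134, 150 and 118. The highest values were those of H2BC6 (0.14) and H2BC18 (probe A_33_P3229241, 0.12), both of which turned negative with normexp. Next came H2BC12 (probe A_23_P145238, -0.01) and H3C1 (-0.09), which turned positive with it. The other probe of H2BC12 gave -0.78, and the brightest probe of H2BC18 (A_33_P3253501) gave -0.51.

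**Figure D2:**
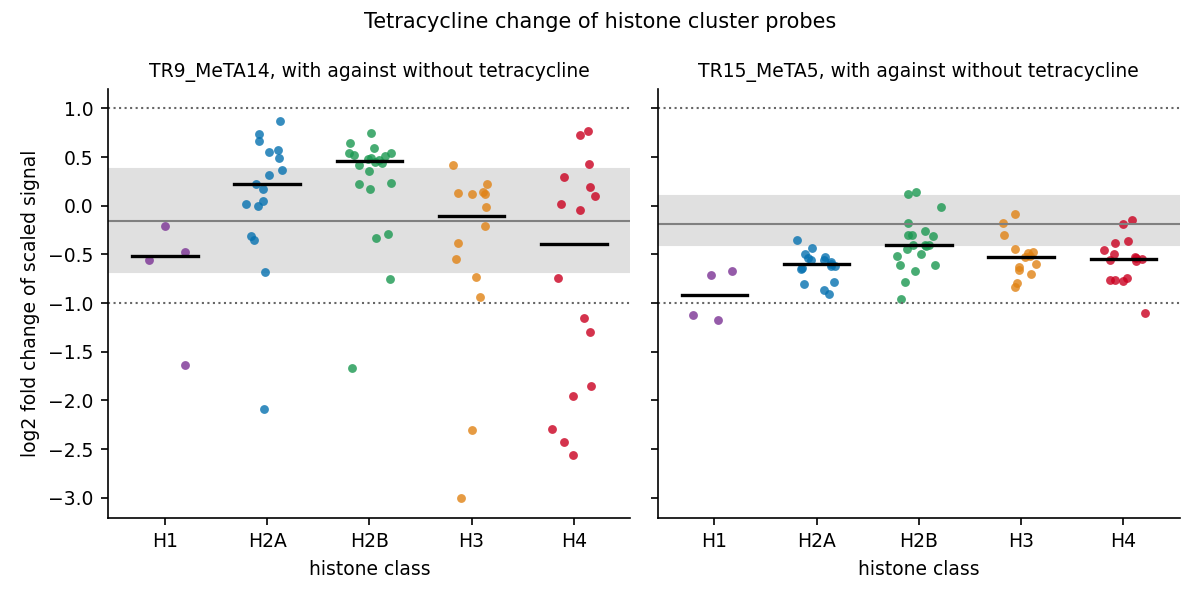
Log2 change with tetracycline of each histone probe well above background on both arrays of the line, by class (points), in TR9_MeTA14 (left) and TR15_MeTA5 (right). H4C7, compared in TR9_MeTA14 through a set value, is not drawn. Black bars are class medians, the grey line and band the median and quartiles of all probes, and dotted lines mark 2-fold. TR9_MeTA14 values reach down to -3.01 with 7 H4 probes under the lower line, while TR15_MeTA5 values stay between -1.17 and 0.14.

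The spread of the values therefore differed between the lines. The quartiles were -0.55 and 0.46 in TR9_MeTA14 and the range -3.01 to 0.87, against quartiles of -0.67 and -0.41 and a range of -1.17 to 0.14 in TR15_MeTA5. Over all 19298 probes the quartiles were -0.68 and 0.38 in TR9_MeTA14 and -0.40 and 0.10 in TR15_MeTA5. Quartiles wider apart in TR9_MeTA14 were thus not particular to the histone probes. Relative to the median of all probes, which cancels any scaling factor, the median histone change was 0.28 in TR9_MeTA14 and -0.36 in TR15_MeTA5. H2A and H2B medians had opposite signs in the 2 lines, except for H2B with spike-in scaling, a difference that was not tested. H4 medians were -0.39 and -0.54, and H3 medians were -0.11 (0.03 with spike-in scaling) and -0.52.

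At least 2-fold lower in both lines were 2 of 71 histone probes (2.82%), against 0.891% of the 21657 probes compared in both. None was at least 2-fold higher in both, against 7.01%. The 2 probes were H1-5 and H4C4 (A_23_P395374). H4C4 read 841 and 216 in TR9_MeTA14 and 1239 and 857 in TR15_MeTA5, 4.89-fold and 2.14-fold lower. In both lines the +Tet array was the lower one. The other probe of H4C4, A_33_P3410836, read 1082, 1325, 2651 and 2655 and changed by -0.04 and -0.56. Neither call held with spike-in scaling, with normexp and quantile normalization or at 3-fold. By the brightest probe of each gene only 1 held, that of H1-5. With spike-in scaling H1-5 was at -0.68 and H4C4 at -0.65 in TR15_MeTA5, and with normexp and quantile normalization H1-5 was at -0.58 in TR9_MeTA14 and H4C4 at -0.97 in TR15_MeTA5.

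Probes of one gene did not always give one answer. Of the 10 genes with several probes, H4C4 differed by 2.25 between its probes in TR9_MeTA14, H4C13 by 1.81 (-2.56 and -0.74) and H2BC21 by 1.22. The second H4C13 probe was dim, at 35.1 and 26.3. H3C10 differed by 0.01 and H2AC6 by 0.07 in the same line, near the SD of 0.0865 that repeated spots give for a log2 ratio. In TR15_MeTA5 the largest differences between probes of one gene were those of H2BC12 (0.77), H2BC18 (0.63) and H4C4 (0.53). Changes of single copies are uncertain to the degree that probes of one gene differ.

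Over both lines together, limma with the lines standing as replicates called none of the 72 histone probes tested, where 2.61% of 22808 probes were called (593 higher and 3 lower). At an unadjusted p under 0.05 there were 12 histone probes (16.7%), all lower, against 19.5% of all probes. H1-5 had the lowest adjusted p in limma (0.139, log2 change -1.38 with SE 0.31), followed by H4C4 (0.141, -1.69 with SE 0.38), each lower in both lines. This fit had 1 residual degree of freedom and, in data simulated from it, recovered 0% of 4-fold and 34% of 8-fold changes, so changes of the size seen here were mostly below what it can call.

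**Figure D3:**
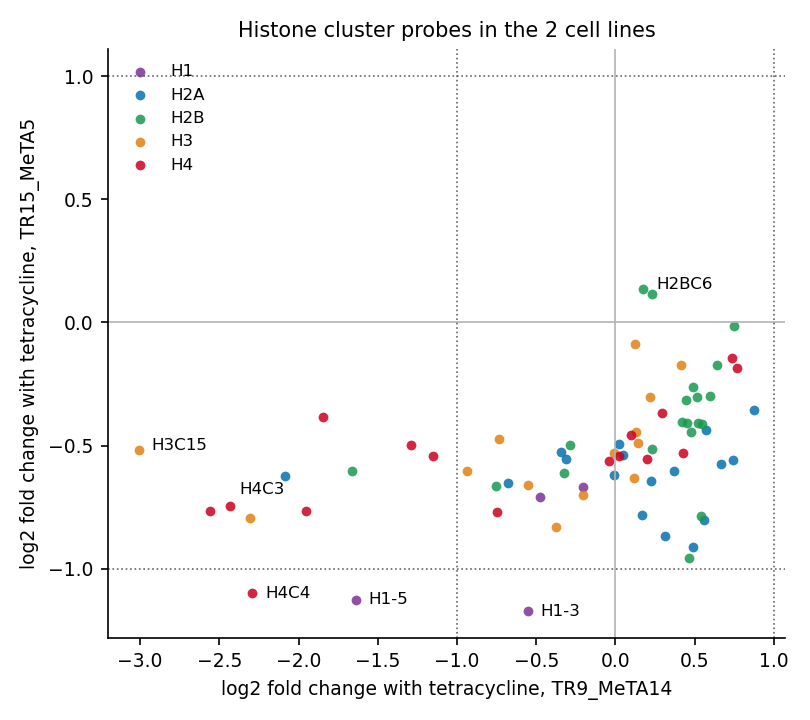
Log2 change with tetracycline of the 71 histone probes well above background on all arrays, TR9_MeTA14 on the horizontal and TR15_MeTA5 on the vertical axis, coloured by class. Dotted lines mark 2-fold. H1-5 and H4C4 alone lie past 2-fold on both axes, and H3C15 and H4C3 are low on the TR9_MeTA14 axis at -3.01 and -2.43.

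The untreated lines already differed. On the -Tet arrays 44 of 71 histone probes (62%) were at least 2-fold higher in TR15_MeTA5 than in TR9_MeTA14, against 8.44% of 21650 probes, and none was at least 2-fold lower, against 5.49%. The H4 probes were all among the higher ones (16 of 16), as were 16 of 17 for H2A, 7 of 14 for H3, 4 of 20 for H2B and 1 of 4 for H1. The median difference was 1.19 over the histone probes and 0.13 over all probes. By class it was 1.61 for H2A, 1.33 for H4, 1.12 for H3, and 0.75 for H2B and 0.55 for H1, the last 2 turning to -0.30 and -0.50 with spike-in scaling.

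This comparison leans on the scaling more than the others. Spike-in scaling moved the median of all probes to -0.92 and that of the histone probes to 0.14, and left 4 probes at least 2-fold higher. The distance between both medians, 1.06 or 2.08-fold, is the same under either by construction, since each scaling shifts a whole array by 1 constant. With quantile normalization it was 0.95 (1.93-fold) and with normexp 0.87 (1.82-fold). H1-5 differed most, at 62.9 in TR9_MeTA14 -Tet against 321 in TR15_MeTA5 -Tet (8.59-fold after scaling), and H3C15 came next at 5.49-fold. The comparison shares its arrays with the tetracycline comparisons, so a low signal on TR9_MeTA14 -Tet enters both.

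**Figure D4:**
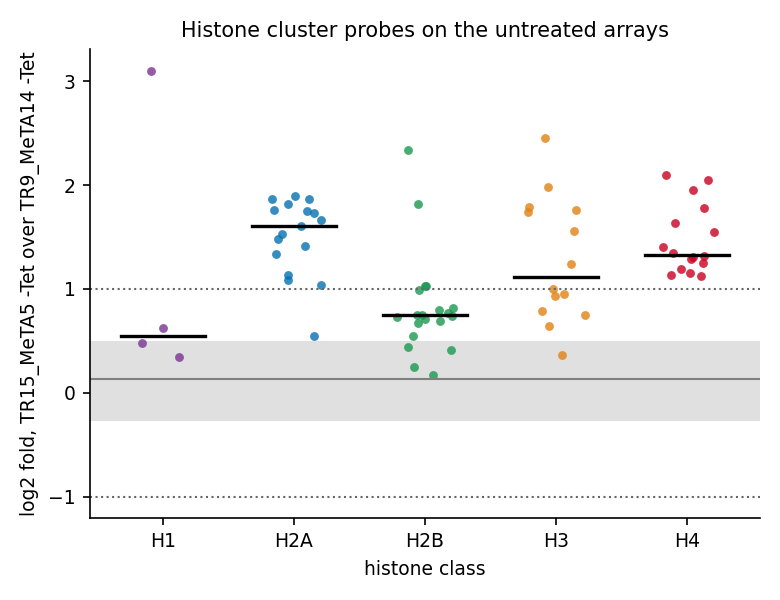
Log2 of TR15_MeTA5 -Tet over TR9_MeTA14 -Tet for each histone probe by class, with class medians (black bars), the median and quartiles of all probes (grey) and 2-fold (dotted). All points are above 0, with H2B between 0.17 and 2.34 and H4 between 1.13 and 2.10.

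Genes that make, process and place histone mRNA and protein were read as 4 lists. Among 24 genes of histone mRNA transcription and processing, 1 of 23 compared was at least 2-fold higher and 4 lower in TR9_MeTA14, where all probes gave 15.2% higher and 15.1% lower. The lower count is thus near that of all probes. None of 22 passed 2-fold in TR15_MeTA5, where all probes gave 8.5% and 2.67%. SLBP, which binds the stem-loop, read 3016 and 5007 in TR9_MeTA14 and 3129 and 4415 in TR15_MeTA5, changes of 0.40 and -0.07. NPAT, the activator of histone transcription at the clusters, was dim, at between 26.7 and 36.2 on the 4 arrays. The one higher gene was SRRT (2.20-fold), and the 4 lower were CASP8AP2, CDK2, CCNE1 and CCNE2 (3.96-fold), of which the last 3 encode the S-phase kinase CDK2 and its cyclins. CASP8AP2 was dim as well, at 35.2 and 21.6 in TR9_MeTA14, and 2.05-fold lower, close to the threshold.

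Of the replication-independent histones, which are made outside S phase or replace the others, 4 of 12 compared were at least 2-fold lower in TR9_MeTA14 and none higher, against 15.1% and 15.2% of all probes. They were CENPA, the centromeric H3 (from 442 to 52.0, a change of -3.42), H2AX (2.91-fold), H2AZ1 (2.49-fold) and H1-10 (2.21-fold). H3-3A and H3-3B, which encode H3.3, changed by 0.00 and 0.24. In TR15_MeTA5 1 of 12 was higher, against 8.5% of all probes. It was H2AJ, at 112 and 381 against 11592 and 11452 in TR9_MeTA14. Of the chaperones 5 of 20 were lower in TR9_MeTA14, including HJURP, which loads CENPA (2439 to 338), and 2 were higher, TONSL and CABIN1, against the same 15.1% and 15.2%. None of the chaperones passed 2-fold in TR15_MeTA5, against 8.5% higher and 2.67% lower among all probes.

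The S-phase genes held the most 2-fold changes of the 4 lists in TR9_MeTA14: 13 of 21 were at least 2-fold lower and none higher, against 15.1% and 15.2% of all probes, with a median of -1.24 beside -0.15. In TR15_MeTA5 none of 21 passed 2-fold, against 8.5% higher and 2.67% lower among all probes. The median there was -0.41 (0.03 with spike-in scaling). PCNA, the sliding clamp of DNA polymerase, read 2905 and 1526 in TR9_MeTA14 and 3972 and 4198 in TR15_MeTA5, 2.40-fold lower in the first line. On the untreated arrays the S-phase median was 1.08 higher in TR15_MeTA5 (0.03 with spike-in scaling). No gene of the 4 lists passed 2-fold the same way in both lines, against 7.01% higher and 0.891% lower among all probes. limma called none of these genes, against 2.61% of all probes. S-phase genes and part of the H4 and H3 probes were lower on the same array. Whether the S-phase genes have a part in the histone values was not tested.

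**Figure D5:**
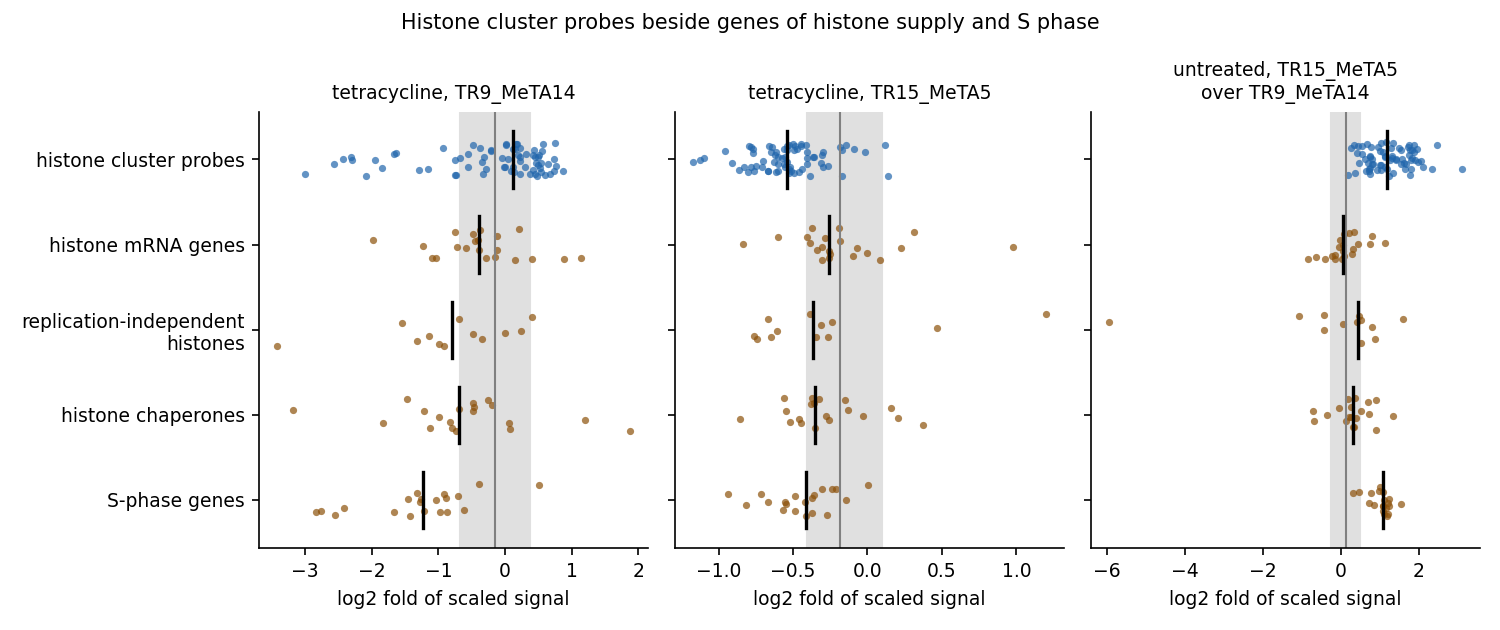
Log2 differences of histone cluster probes (blue) and of genes on 4 lists (brown) for tetracycline in each line and for the untreated lines, with list medians (black) and the median and quartiles of all probes (grey). The horizontal scales differ between panels. S-phase genes have medians of -1.24, -0.41 and 1.08, histone cluster probes 0.12, -0.54 and 1.19.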

How the data were processed

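Total RNA was labelled with Cy3 by an oligo-dT-primed linear amplification and hybridised to 4 one-colour Agilent arrays on 1 slide. The authors deposited the scanner output of Feature Extraction (10.7.3.1 per the file headers; 9.5.1 in the submitters' processing notes), whose processed signal is a background-subtracted intensity, not normalized between arrays. The file headers name hg19 for the array design. Values were averaged on the log2 scale over spots that were not outliers (255 to 344 left out per array), less the 75th percentile of that array's non-control probes. Probes were named through RefSeq accessions (GRCh38.p14), and 74.5% had 1 gene. The files hold no depth, and with 4 arrays their number limits the precision. Repeated spots gave an SD of 0.0865 for a log2 ratio, which leaves out the spread between cultures.

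A change counted at 2-fold, the threshold of the study's methods. Where the dimmer array was not well above background its value was set to the higher of its own signal and the lowest signal well above background (13.9 to 19.2). limma 3.58.1 (R 4.3.3) fitted tetracycline with cell line as block, a trend on intensity, and p-values adjusted by Benjamini-Hochberg across the 22808 probes that 2 or more arrays placed well above background. The fit was tested on simulated data with known changes. It treats the lines as replicates, and the block removes their difference in level. Its p-values are thus set against how far the tetracycline changes of the 2 lines differ, pooled with the spread of other probes. Python 3.11.15 did the rest.

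Probes named were those 2-fold changed alike in both lines, called by limma, opposite in the lines, among the 5 largest increases or decreases of a line, or brightest of a class. H2AC20, H2BC7, H4C1, H4C2, H4C5 and other copies were named after their values were seen. The members and lists were chosen with earlier results of these data known. Alternatives were quantile normalization, normexp (offset 50) with quantile, median scaling, all spots, the deposited series table, the brightest probe of each gene, no background filter or a filter on all 4 arrays, 1.5-fold and 3-fold thresholds, limma without the line block or the trend, and, chosen after seeing the data, scaling on 256 spike-in spots. One marker gene of the lists is not reported here.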

Additional observations from a re-analysis of the deposited data

Results flagged for a closer look

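Class medians with opposite signs in the 2 lines drew attention. For H2A the tetracycline change in TR9_MeTA14 minus that in TR15_MeTA5 was 0.83 on the log2 scale (medians 0.22 and -0.60). For H2B it was 0.87 (0.46 and -0.41). Neither difference was tested, since each line has 1 array per condition, and the copies of a class are not replicates. With spike-in scaling the TR15_MeTA5 median of H2B was 0.04, so its signs were then alike.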

How the results depend on the processing

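With 1 array per condition no replicate could be left out, and depth is limited by signal over background. limma's line block pairs the -Tet and +Tet arrays of a line, and the fit without it is given below. By replicate number, no paired analysis was possible because every array has the number 1. The 12 probes lower in TR9_MeTA14 stayed within 1.5 times that count under every alternative run. The count higher in TR9_MeTA14 became 1 with spike-in scaling, 1 without the background filter and 8 at 1.5-fold. In TR15_MeTA5 the count lower became 5 with quantile normalization, 0 with spike-in scaling, 0 at 3-fold and 29 at 1.5-fold. The count lower in both lines became 0 with normexp, 0 with spike-in scaling, 0 at 3-fold, 12 at 1.5-fold and 1 by the brightest probe of each gene. On the untreated arrays the count higher became 4 with spike-in scaling and 22 at 3-fold. Shares of all probes were counted only at 2-fold under the main processing. Whether the counts under the alternatives depart from the array as a whole is therefore not known. The median change became 0.26 with spike-in scaling in TR9_MeTA14. In TR15_MeTA5 it became -0.42 with quantile normalization, -0.39 with normexp and -0.10 with spike-in scaling. On the untreated arrays it became 0.99, 0.89 and 0.14 in the same order. limma called no histone probe under any of its settings, with a lowest adjusted p of 0.0527 (no filter) to 0.403 (no line block) and 1 to 15 probes at an unadjusted p under 0.05. Of 42 changes of named probes, 27 moved by more than 0.0865 with quantile normalization, 33 with normexp and 42 with spike-in scaling. The deposited series table holds the same signals and tests nothing. The causes were not tested.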
